A study of Homo sapiens with 28 samples.

Results

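A set of 10 enzymes of purine and pyrimidine synthesis, CAD, PPAT, GART, PFAS, PAICS, ADSL, ATIC, IMPDH2, GMPS and CTPS1, was followed through xenograft tumors and derived cultures of HCT116, an established human colorectal carcinoma cell line. They were found by gene symbol, 1 row each, among the 58278 genes of the count table, and all 10 passed the filter on low counts in tumors and in cultures. The cells carried a luciferase and GFP reporter and had been injected under the skin of male NOD SCID mice, which lack mature B and T cells but keep other host cells. The mice received vehicle (Control, 3 tumors), the CDK4 and CDK6 inhibitor Palbociclib (5 tumors), the glutaminase inhibitor Telaglenastat, also known as CB-839 (4 tumors; the sample labels spell it Telaglenestat), or both drugs (combination, 4 tumors), by daily gavage. Each treatment also has 3 cultures, grown without drug from cells dissociated out of residual tumors. The labels tie no culture to a tumor and name no animals, so p-values measure the spread between these 28 libraries, some of which may share a source.

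Purine synthesis builds the ring of inosine monophosphate (IMP) on phosphoribosyl pyrophosphate (PRPP) in a chain of steps. PPAT takes the first nitrogen from glutamine, GART carries 3 activities, among them the first formyl transfer, PFAS uses another glutamine, and PAICS, ADSL and ATIC complete the ring. IMPDH2 and then GMPS, with another glutamine, turn IMP into GMP, CAD starts pyrimidine synthesis from glutamine, and CTPS1 aminates UTP to CTP with glutamine. Telaglenastat blocks glutaminase, which uses glutamine to make glutamate, a different reaction from the amide transfers of these enzymes.

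Libraries held 6273834 to 10617936 counts on genes in tumors and 7198540 to 13815675 in cultures. The fewest counts of any of the 10 genes in any library were 45, for PFAS in a combination tumor. Libraries differed in how their levels depended on the GC content of transcripts. Fitted as a slope of log2 level for each SD of GC content, this averaged 0.35 ± 0.0058 in Control tumors (SD, n = 3), 0.38 ± 0.11 (n = 5) in Palbociclib tumors, -0.24 ± 0.035 (n = 4) in Telaglenastat tumors and -0.11 ± 0.057 (n = 4) in combination tumors. Because treatment and slope went together, most changes in tumors are given as fitted and again "corrected". The corrected values have library-wise trends on GC content and gene length removed. In these tumor groups the treatment and the slope cannot be told apart. Changes between cultures are given as fitted. The 7 epithelial markers summed to 1550 to 3982 CPM (counts scaled to a common library size) in tumors and 1317 to 2499 in cultures, with CDX1 at 0 in every library. VIL1 was also at 0 in every Telaglenastat tumor and was detected in each of the other groups. The 6 fibroblast markers summed to 47.9 to 192 CPM in tumors and 2.42 to 8.04 in cultures, the 6 leukocyte markers to 2.71 to 30.5 and 0.122 to 3.88, and the 5 endothelial markers to 0.734 to 2.57 and 0.142 to 1.26, with CDH5 at 0 in every library. The epithelial sum was 2614 to 3156 CPM in Control tumors, 2874 to 3982 with Palbociclib, 1550 to 1709 with Telaglenastat and 2254 to 2546 with the combination. In the same order the fibroblast sum was 151 to 192, 109 to 186, 47.9 to 61.0 and 94.9 to 142 CPM, and the leukocyte sum 14.4 to 19.8, 22.1 to 30.5, 2.71 to 9.89 and 9.66 to 16.6. Mitochondrial genes took 6.78% to 7.22% of counts in Control tumors, 8.28% to 13.6% with Palbociclib, 6.23% to 9.07% with Telaglenastat and 13.2% to 14.8% with the combination, and 6.30% to 10.4% in cultures. Reads were aligned to the human genome, so RNA of the mouse host reaches these marker genes only by sequence similarity. The fibroblast, leukocyte and endothelial sums therefore do not measure host cell content. The part of these cell types and of the mitochondrial share in the results was not tested.

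CPM values are on 1 scale of all 28 libraries, while treatments in tumors were tested on a scale of the tumors alone, and the scales set the Telaglenastat and combination tumors differently against Control. Whether a group overlapped Control was not the same on both for 3 of the 10 genes with Telaglenastat (ADSL, ATIC and CTPS1) and 5 with the combination (GART, PAICS, ADSL, GMPS and CTPS1), and was the same for all 10 with Palbociclib.

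PPAT and PAICS, 2 genes of this chain, lie head to head on chromosome 4 (GENCODE 29, GRCh38). PPAT occupies chr4:56393362-56435615 on the minus strand and PAICS chr4:56435741-56464579 on the plus strand, with 125 bases between their starts. Promoter windows (250 bases before to 50 after a start, RefSeq, GRCh38.p14) were matched for 8 of the 10 genes, with 13 windows in all. No window was matched for ADSL or IMPDH2, so these genes were not searched for the letters below. The windows of PPAT and PAICS shared 236 bases on opposite strands. They are shown with ATIC because these 3 genes were the ones with a window that held the E-box letters CACGTG, which transcription factors such as MYC and MAX can bind. The capitals mark those letters.

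PPAT, chr4:56435566-56435865, minus strand: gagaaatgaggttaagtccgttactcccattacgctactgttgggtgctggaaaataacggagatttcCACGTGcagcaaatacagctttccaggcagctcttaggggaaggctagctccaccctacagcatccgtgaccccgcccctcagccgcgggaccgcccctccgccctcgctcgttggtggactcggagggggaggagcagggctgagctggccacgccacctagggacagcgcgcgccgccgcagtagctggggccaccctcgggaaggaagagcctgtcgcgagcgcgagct
PAICS, chr4:56435502-56435801, plus strand: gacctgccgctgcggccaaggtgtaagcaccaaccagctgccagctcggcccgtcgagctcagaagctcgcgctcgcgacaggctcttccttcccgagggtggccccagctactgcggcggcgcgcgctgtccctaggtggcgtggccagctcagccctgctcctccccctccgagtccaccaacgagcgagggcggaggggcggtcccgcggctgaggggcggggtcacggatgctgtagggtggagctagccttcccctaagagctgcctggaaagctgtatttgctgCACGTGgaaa
ATIC, chr2:215311809-215312108, plus strand: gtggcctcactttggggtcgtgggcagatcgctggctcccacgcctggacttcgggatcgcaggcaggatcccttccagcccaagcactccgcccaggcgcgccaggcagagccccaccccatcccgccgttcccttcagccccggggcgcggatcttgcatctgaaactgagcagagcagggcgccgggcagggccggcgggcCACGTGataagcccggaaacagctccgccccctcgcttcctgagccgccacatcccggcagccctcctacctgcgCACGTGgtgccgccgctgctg

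The letters of PPAT and PAICS are 1 stretch of DNA, which begins 182 bases before the PPAT start and 40 bases after the PAICS start. ATIC held 2 matches, 46 bases before and 29 bases after its start. CACGTG stood in 3 of the 13 windows, beside 7.26% of the 35116 windows of all genes, and was not in the other two windows of PAICS. The other letters searched, also on both strands, were GCATGCG (1 of 13 windows, in CTPS1, and 3.91% of all windows), CCAAT (4 of 13, in CAD and GART, and 34.6% of all) and GGGCGG (9 of 13 and 45% of all). No other motif was searched. These are matches of letters and not binding sites.

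Among the 10 enzymes, levels per kilobase of exon spanned more than an order of magnitude in Control tumors. IMPDH2 was the highest, at 152 ± 12.02 CPM per kilobase (SD, n = 3), and PAICS followed at 58.1 ± 3.21. ATIC stood at 26.4 ± 0.598 and GART at 17.7 ± 2.18 CPM per kilobase. GMPS (14.7 ± 0.926), PPAT (14.04 ± 1.21) and ADSL (13.0 ± 0.394) came next, and GART to GMPS, GMPS to PPAT and PPAT to ADSL overlapped in their libraries. CAD had 10.3 ± 0.866, CTPS1 5.78 ± 0.365 and PFAS 2.60 ± 0.213 CPM per kilobase, each apart from its neighbours. In Control cultures IMPDH2 (149 ± 12.9) and PAICS (124 ± 10.4) led again and their libraries overlapped.

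**Figure D1:**
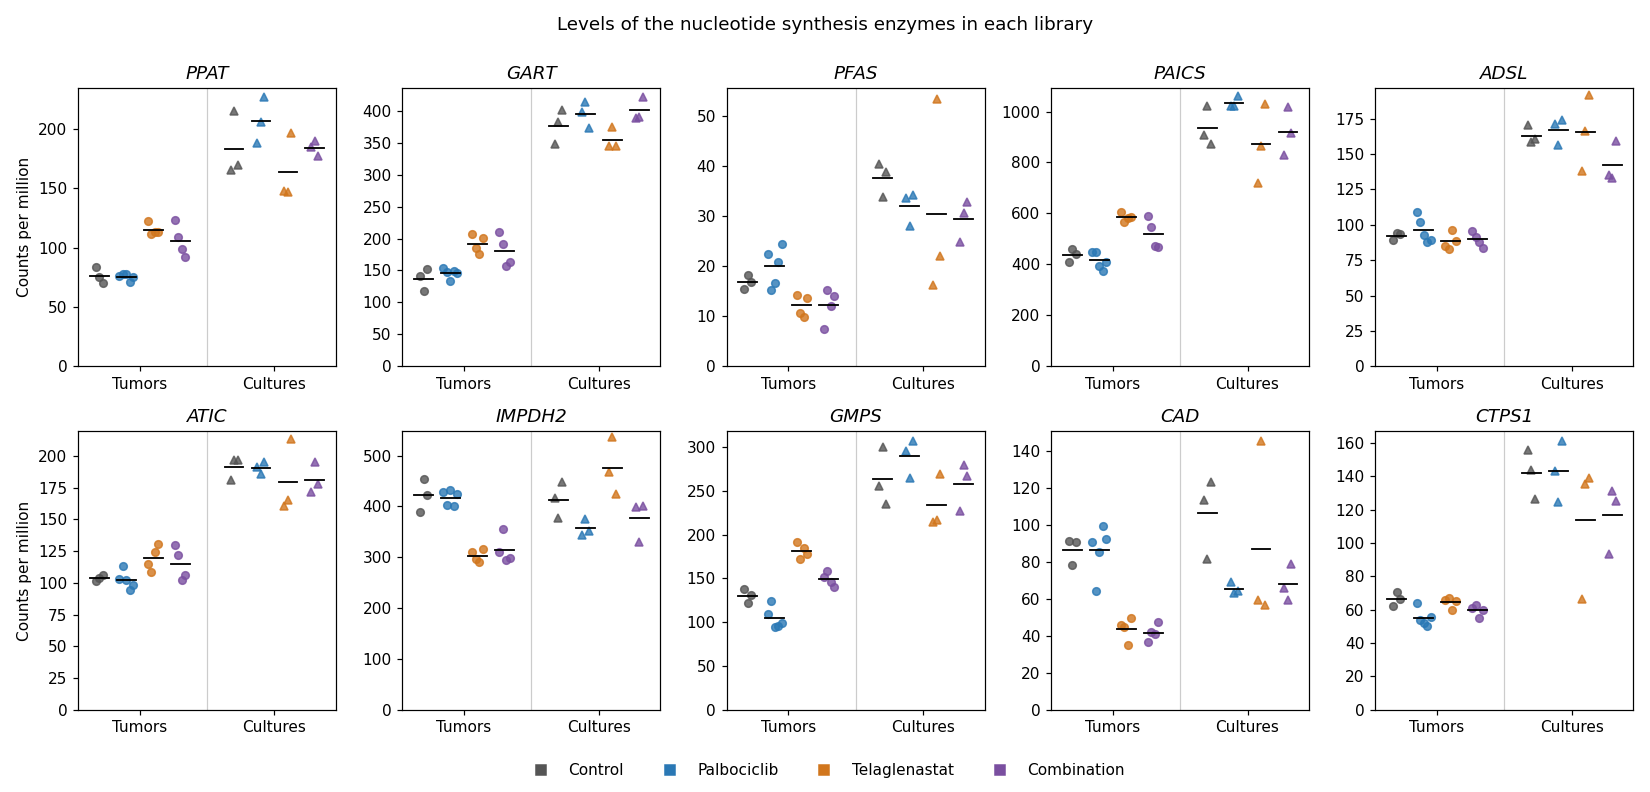
CPM (vertical axes, from 0, on a scale of their own for each gene) of the 10 enzymes in every library, with tumors as circles, cultures as triangles, colors for the 4 treatments and black bars for group means. CAD in tumors split into 64.2 to 99.5 CPM with Control or Palbociclib and 34.9 to 49.6 with Telaglenastat or the combination. Of the 10 genes, 8 were higher in every Control culture than in any Control tumor, and the share of all genes apart in this way was not computed.

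As fitted in tumors, these enzymes were close to Control with Palbociclib and had calls of both signs with Telaglenastat and the combination. All genes also had calls of both signs there. With Telaglenastat 22.6% were higher and 28.5% lower, and with the combination 17.6% and 26.9%. With Palbociclib, 0 of the 10 rose and 1 fell (GMPS), where 6.16% of the 14848 genes tested changed. With Telaglenastat, 4 rose (PPAT, GART, PAICS and GMPS) and 3 fell (CAD, PFAS and IMPDH2), where 51.1% of all genes changed. With the combination, 2 rose (PPAT and GART) and 4 fell (CAD, PFAS, CTPS1 and IMPDH2), where 44.5% of all genes changed. The combination tumors are also the group with the highest mitochondrial shares. The median log2 fold changes of the 10 genes were -0.011, -0.028 and -0.049 in the 3 comparisons, beside 0.00067, 0.027 and -0.036 over all genes. Calls are by edgeR's quasi-likelihood test at an adjusted p of 0.05 over all genes. The treated groups were all compared with the same 3 Control tumors.

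After the correction, none of the 4 rises with Telaglenastat was past the threshold. The calls were then 0 higher and 3 lower with Telaglenastat (ADSL, CTPS1 and IMPDH2), where 13.2% of all genes changed, and 0 higher and 4 lower with the combination (CAD, ADSL, CTPS1 and IMPDH2), where 26.1% changed. With Palbociclib the corrected call was again GMPS, lower, where 7.85% of all genes changed. IMPDH2 was thus lower with both Telaglenastat-containing treatments in the fits with and without the correction.

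**Figure D2:**
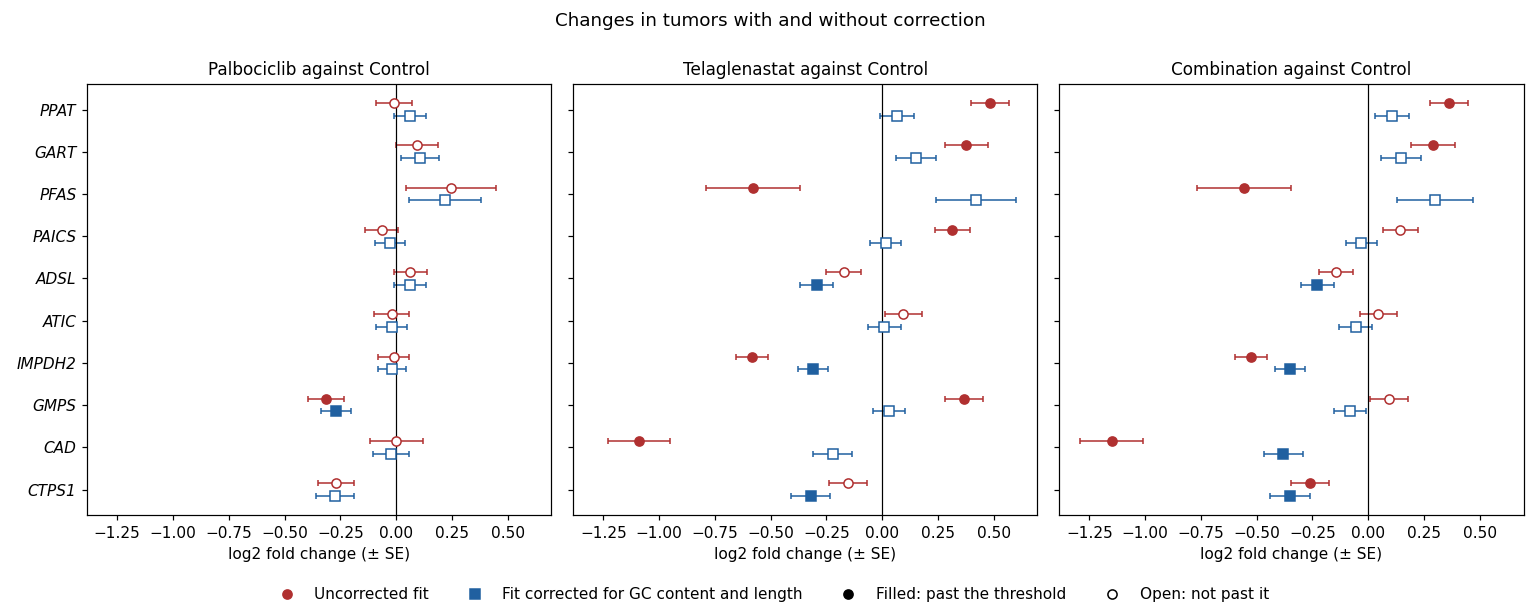
Log2 fold changes against Control tumors (horizontal axis, ± SE) of the 10 enzymes for the 3 treatments, as fitted (red circles) and corrected for GC content and gene length (blue squares), with filled symbols past an adjusted p of 0.05. PPAT, GART, PAICS and GMPS stood at 0.32 to 0.48 with Telaglenastat as fitted and at 0.017 to 0.15 corrected, while IMPDH2 stayed below 0 at -0.58 and -0.31.

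The transcripts of the 10 genes range from 38.1% GC in PPAT to 59.0% in PFAS, and their changes with Telaglenastat were ordered much as their GC content was. Across the 10 genes, Pearson's r of the log2 fold change with GC content was -0.91 with Telaglenastat and -0.88 with the combination, and 0.014 and -0.16 after the correction (a description, since the genes share the same libraries). For comparison, all tested genes were split by GC content into 20 bins. The 739 genes in the bin of PPAT had a median log2 fold change of 0.42 with Telaglenastat, where PPAT had 0.48. In the bin of PAICS (43.4% GC) the median was 0.31 and PAICS had 0.32, and in the bin of GMPS (41.6% GC) it was 0.36 and GMPS had 0.37. GART (45.9% GC), at 0.38, was above its bin's median of 0.22. The shares of genes called in the bins of PPAT, PAICS, GMPS and GART were 60.9%, 45.1%, 55.2% and 30.6%. In the bin of CAD (57.7% GC) the median was -0.83 and CAD had -1.09, and 66.7% of that bin's genes were called. PFAS, at -0.58, was above its bin's median of -1, and IMPDH2 (52.2% GC), at -0.58, was below its bin's -0.27. ADSL (48.1% GC, -0.17) and CTPS1 (47.4% GC, -0.15) were below their bins' medians, 0.095 and 0.18.

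**Figure D3:**
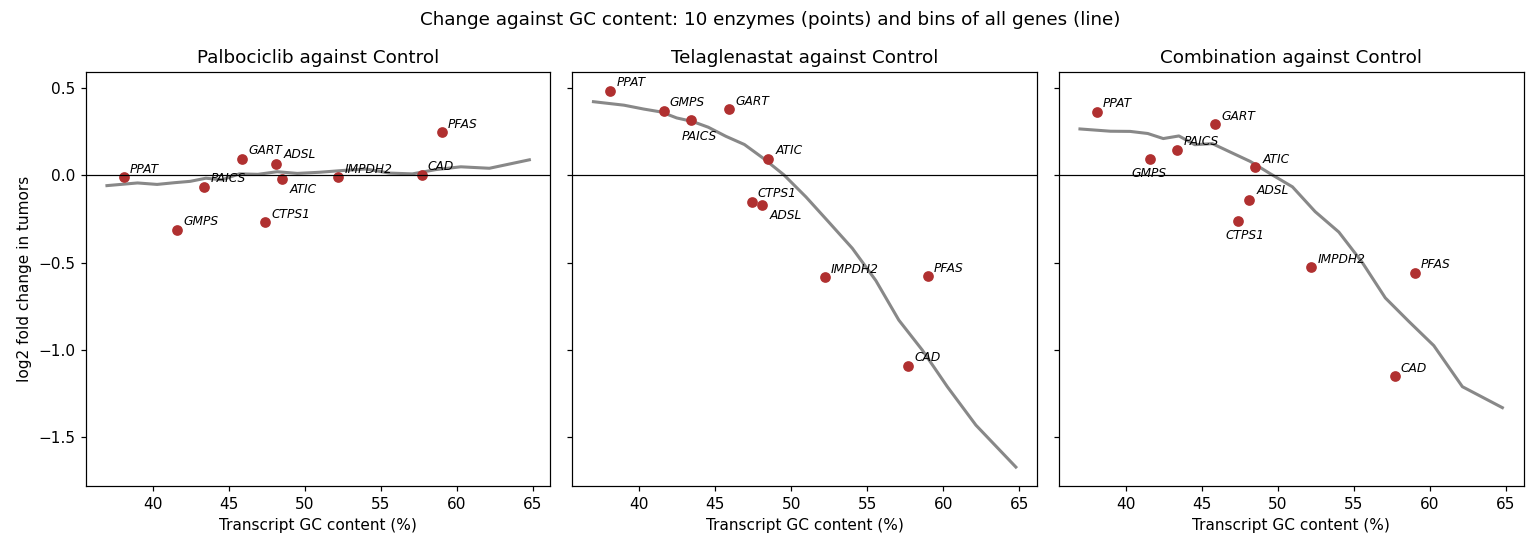
Log2 fold change against Control tumors (vertical axis) by transcript GC content in % (horizontal axis) for the 10 enzymes (red points) and for the medians of 20 bins of all tested genes (grey line), by treatment. With Telaglenastat the line falls from 0.42 to -1.67, with PPAT, GMPS and PAICS near it. GART and PFAS are above it and IMPDH2, ADSL, CTPS1 and CAD under it. With Palbociclib the line stays near 0.

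PPAT, the committed step of purine synthesis, had 83.4, 75.5 and 70.3 CPM in Control tumors and 76.2, 78.03, 77.5, 70.7 and 75.7 in Palbociclib tumors. It had 122, 112, 114 and 113 CPM in Telaglenastat tumors and 123, 109, 98.7 and 91.8 in combination tumors. Every Telaglenastat and combination tumor was above every Control tumor, while Palbociclib and Control overlapped. The log2 fold change was 0.48 ± 0.084 (SE) with Telaglenastat (adjusted p = 9.09e-05) and 0.36 ± 0.085 with the combination (0.00162). Corrected, it was 0.066 ± 0.076 (0.657) and 0.11 ± 0.077 (0.336). A gene of the other strand, AC068620.2, overlaps PPAT, and whether counting used strand is not given in the sources used here.

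GART, the trifunctional enzyme, had 141, 119 and 152 CPM in Control tumors, 207, 185, 175 and 201 in Telaglenastat tumors and 209.5, 192, 157 and 163 in combination tumors. On this scale all treated tumors of these groups were above all Control tumors, while on that of the test the combination overlapped Control. GART rose by 0.38 ± 0.098 on the log2 scale with Telaglenastat (adjusted p = 0.00314) and 0.29 ± 0.098 with the combination (0.0204), and corrected it had 0.15 ± 0.089 (0.309) and 0.15 ± 0.089 (0.25). The call with the combination was lost without Control tumor 2 or without combination tumor 1 or 2, where the adjusted p reached 0.16. GART overlaps SON on the other strand.

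PAICS, the most abundant of the enzymes of the early chain, had 411, 459 and 439.9 CPM in Control tumors, 607, 566, 582 and 586 in Telaglenastat tumors and 588, 546, 473 and 468 in combination tumors. The Telaglenastat tumors stood furthest above Control, and the combination tumors were above Control on this scale and overlapped it on that of the test. The log2 fold change was 0.32 ± 0.079 with Telaglenastat (adjusted p = 0.00256) and 0.017 ± 0.069 corrected (0.921). With the combination it was 0.15 ± 0.079 (0.148). The 7 pseudogenes named after PAICS held 127 counts in all libraries together, beside 158911 on PAICS.

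PFAS, the glutamine-dependent amidation step, was the lowest of the 10 genes and the least precise. It had 15.5, 18.2 and 16.8 CPM in Control tumors, 14.3, 10.7, 9.85 and 13.6 in Telaglenastat tumors and 7.38, 15.3, 12.04 and 14.1 in combination tumors. All treated tumors of these 2 groups were under the Control range, although the highest combination tumor was close to it. PFAS fell by 0.58 ± 0.21 on the log2 scale with Telaglenastat (adjusted p = 0.0279) and by 0.56 ± 0.21 with the combination (0.0379). Corrected, the values changed sign, to 0.42 ± 0.18 (0.128) and 0.30 ± 0.17 (0.229). Uncorrected, the call with Telaglenastat was lost without Control tumor 2 or 3 or without Telaglenastat tumor 2 or 3 (adjusted p up to 0.0897), and that with the combination without any 1 of the 3 Control tumors or without combination tumor 1 or 3 (up to 0.125).

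ADSL, which acts in the IMP chain and again in AMP synthesis, and ATIC, which performs the last 2 steps to IMP, passed the threshold in neither of these comparisons as fitted. ADSL had 89.0 to 94.0 CPM in Control tumors and 82.7 to 96.6 in Telaglenastat tumors, which overlapped, although on the scale of the test every Telaglenastat tumor was under Control. Its log2 fold change of -0.17 ± 0.077 with Telaglenastat was not past the threshold (adjusted p = 0.0659), and corrected ADSL fell by 0.29 ± 0.074 (0.0098) with Telaglenastat and by 0.23 ± 0.074 (0.0259) with the combination. ATIC had 101 to 106 CPM in Control tumors and 109 to 131 in Telaglenastat tumors, apart on this scale and overlapping on that of the test, with a log2 fold change of 0.095 ± 0.082 (0.346) and 0.0092 ± 0.074 corrected (0.961). A gene of the same strand, AL022238.4, overlaps ADSL.

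IMPDH2, the enzyme that commits IMP to guanine nucleotides, was lower in every Telaglenastat and combination tumor than in any Control tumor. It had 388, 455 and 423 CPM in Control tumors and 428, 402, 432, 402 and 424 in Palbociclib tumors. It had 309.7, 296, 290.4 and 317 CPM in Telaglenastat tumors and 311, 355, 294 and 298 in combination tumors. The 8 values under Palbociclib or Control thus lay above the 8 under the Telaglenastat-containing treatments. IMPDH2 fell by 0.58 ± 0.073 on the log2 scale with Telaglenastat (adjusted p = 1.86e-06) and by 0.53 ± 0.073 with the combination (8.43e-06), and corrected by 0.31 ± 0.067 (0.00352) and 0.35 ± 0.067 (0.000631). No single library left out changed these 2 uncorrected calls. A gene of the other strand, AC137630.3, overlaps IMPDH2.

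GMPS, which makes GMP with glutamine, moved in opposite directions with the 2 single drugs as fitted. It had 138, 122 and 132 CPM in Control tumors and 109, 125, 94.8, 96.0 and 98.8 in Palbociclib tumors. It had 191, 172, 185 and 178 CPM in Telaglenastat tumors and 152, 159, 146 and 141 in combination tumors. Palbociclib tumor 2, with 125 CPM, was inside the Control range and the other 4 were under it, while all Telaglenastat tumors were above it. GMPS fell by 0.31 ± 0.081 on the log2 scale with Palbociclib (adjusted p = 0.0223) and by 0.27 ± 0.067 corrected (0.0155), and the uncorrected call was lost without Control tumor 1 or 3 or Palbociclib tumor 3, 4 or 5 (adjusted p up to 0.149), with the replicate block (0.0967), with the compared groups alone (0.0908) and in 1 fit of all libraries (0.082). With Telaglenastat it rose by 0.37 ± 0.085 (0.0013) and corrected had 0.031 ± 0.070 (0.842). With the combination it had 0.095 ± 0.085 (0.391).

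CAD, which carries the first 3 activities of pyrimidine synthesis, had the largest change of the 10 genes as fitted with Telaglenastat and with the combination. It had 91.1, 78.3 and 90.7 CPM in Control tumors and 90.6, 64.2, 85.4, 99.5 and 92.6 in Palbociclib tumors. It had 46.1, 44.6, 34.9 and 49.6 CPM in Telaglenastat tumors and 36.9, 42.0, 40.9 and 47.4 in combination tumors. CAD was near 1 level without Telaglenastat and near another with it, with no overlap, and the lowest of the former, Palbociclib tumor 2, was also the library of that group with the lowest GC slope (0.19, others 0.41 to 0.45) and the highest mitochondrial share (13.6%). CAD was 2.13-fold lower with Telaglenastat (log2 fold change -1.09 ± 0.14, adjusted p = 1.69e-06) and 2.22-fold lower with the combination (-1.15 ± 0.14, 1.34e-06). Corrected, the values were -0.22 ± 0.088 (0.109) and -0.38 ± 0.088 (0.00307).

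CTPS1, which makes CTP, had 62.4, 70.8 and 66.6 CPM in Control tumors and 64.0, 53.7, 51.9, 50.01 and 55.9 in Palbociclib tumors. It had 65.8, 67.0, 60.04 and 65.2 CPM in Telaglenastat tumors and 61.2, 63.1, 54.9 and 59.6 in combination tumors. Each treated group overlapped Control on this scale, while on that of the test the Telaglenastat and combination tumors were all under it. For Telaglenastat this was nearly a tie on the scale of the test. The highest Telaglenastat tumor had 67.021 CPM there and the lowest Control tumor 67.028. CTPS1 fell with the combination, by 0.26 ± 0.086 on the log2 scale (adjusted p = 0.0182) and by 0.35 ± 0.089 corrected (0.00643), and the uncorrected call was lost without Control tumor 2 or combination tumor 3 (adjusted p up to 0.0868). With Palbociclib it had -0.27 ± 0.081 (0.0537) and corrected -0.27 ± 0.084 (0.0501), and with Telaglenastat -0.15 ± 0.085 (0.145) and corrected -0.32 ± 0.089 (0.0188).

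The combination was also set against each drug alone. Against Palbociclib, 3 genes rose (PPAT, PAICS and GMPS) and 4 fell (CAD, PFAS, ADSL and IMPDH2), where 47.6% of all genes changed. Corrected, 0 rose and 3 fell, CAD (-0.36 ± 0.079, adjusted p = 0.00369), ADSL (-0.29 ± 0.065, 0.00401) and IMPDH2 (-0.33 ± 0.060, 0.000673), where 14.5% of all genes changed. Against Telaglenastat, 0 rose and 1 fell, where 18.8% of all genes changed. That gene was GMPS, with every combination tumor under every Telaglenastat tumor, at -0.27 ± 0.079 (0.0196) and corrected -0.11 ± 0.066 (0.281). The call was lost without Telaglenastat tumor 1 or combination tumor 3 or 4 (up to 0.0653). CAD and IMPDH2, both called lower with Telaglenastat as fitted, differed between the combination and Telaglenastat by -0.060 ± 0.13 (0.808) and 0.058 ± 0.069 (0.623).

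The interaction term asks whether both drugs together gave more or less than the sum of the single-drug log2 changes. It was not past the threshold for any of the 10 genes (edgeR, 0 at an unadjusted p under 0.05, where 9.59% of all genes were, lowest adjusted p = 0.69, and 0 called by DESeq2), where 0.0673% of all genes changed. Its values ran from -0.22 for PFAS to 0.16 for CTPS1, with standard errors from 0.098 to 0.28.

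In the cultures, grown without drug, none of the 10 enzymes passed the threshold in any comparison, and neither did nearly all other genes. The share of the 13985 genes tested that changed was 0% with Palbociclib, 0% with Telaglenastat and 0.00715% with the combination against Control, 0% and 0% for the combination against Palbociclib and Telaglenastat, and 0% for the interaction. At an unadjusted p under 0.05, edgeR gave 1 member (CAD) with Palbociclib, 0 with Telaglenastat, 1 (CAD) with the combination, and 0, 1 (IMPDH2) and 0 in the other 3 comparisons. Of all genes, 4.23%, 6.42%, 6.40%, 1.98%, 14.1% and 2.05% were under it in the same order. DESeq2 called 0 of the 10 in each of these 6. The spread between cultures was wide for some genes, as for CAD with Telaglenastat (87.2 ± 50.2 CPM, SD, n = 3, beside 43.8 ± 6.31, n = 4, in tumors).

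CAD spanned 56.7 to 145 CPM over the 12 cultures, 2.56-fold from lowest to highest, beside 3.30-fold for PFAS, 2.44-fold for CTPS1 and 1.22- to 1.62-fold for the other 7. It had 114, 81.8 and 123 CPM in Control cultures, 69.2, 63.2 and 64.2 in Palbociclib cultures, 59.6, 145 and 56.7 in Telaglenastat cultures and 66.1, 59.3 and 78.6 in combination cultures. Every Palbociclib and combination culture was under every Control culture, and the log2 fold changes were -0.70 ± 0.29 (adjusted p = 0.795) and -0.65 ± 0.29 (0.681). All tested genes in the GC bin of CAD had medians of -0.357 and -0.295 in the same comparisons. The GC slope averaged -0.241 in Palbociclib cultures and -0.218 in combination cultures, beside -0.0447 in Control cultures. Telaglenastat culture 2 stood far above the other 2 of its group. The 3 cultures with the most CAD, that one and Control cultures 1 and 3, were also the 3 with the highest GC slopes, 0.295, 0.016 and 0.047, while the other 9 had slopes from -0.26 to -0.15.

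PFAS, the other GC-rich gene, had 16.1, 53.3 and 21.9 CPM in Telaglenastat cultures and 33.7 to 40.3 in Control cultures, again with culture 2 far above. IMPDH2 had 468, 536 and 425 CPM in Telaglenastat cultures, 377 to 448 in Control cultures and 345 to 376 in Palbociclib cultures. The direction of IMPDH2 with Telaglenastat was thus not that of the tumors, at 0.19 ± 0.12 (adjusted p = 0.812). CTPS1 had 66.2, 135 and 139 CPM in Telaglenastat cultures, with culture 1 far below, and 126 to 156 in Control cultures.

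The other 6 genes stayed in narrower ranges over the 12 cultures. PPAT had 147 to 227 CPM, GART 344 to 421, PAICS 720.4 to 1059, ADSL 133 to 191, ATIC 160.2 to 213 and GMPS 214 to 307. Their log2 fold changes against Control lay between -0.20 for ADSL with the combination and 0.17 for PPAT with Palbociclib. For these 6 genes the treatments mostly overlapped.

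Of the 10 enzymes, 8 were lower in Control tumors than in Control cultures, which differ in place of growth and in the host cells around them. Bulk RNA cannot tell fewer cells expressing a gene from less RNA per cell. By the test 8 were called lower and 0 higher, where 45.9% of the 15466 genes tested changed, 22.8% of all genes to the lower side. All 8 also had every Control tumor under every Control culture. The share of all genes apart in this way was not computed, so this count has no background beside it. GART had the largest difference, 119 to 152 CPM in tumors and 347 to 401 in cultures, a 2.75-fold lower level (log2 fold change -1.46 ± 0.10, adjusted p = 1.47e-11). PPAT (-1.26 ± 0.12), PFAS (-1.16 ± 0.28), PAICS (-1.10 ± 0.11) and GMPS (-1.02 ± 0.11) were also lower at least 2-fold in the fit, as was CTPS1 (-1.09 ± 0.17). ATIC (-0.88 ± 0.10) and ADSL (-0.82 ± 0.10) differed by less. These 7 had adjusted p from 2.37e-09 to 0.00153, and leaving out any 1 of the 28 libraries changed none of the 8 calls.

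The 2 exceptions were CAD and IMPDH2, whose tumor and culture ranges overlapped. IMPDH2 had 388 to 455 CPM in Control tumors and 377 to 448 in Control cultures (log2 fold change 0.030 ± 0.095, adjusted p = 0.824). CAD had 78.3 to 91.1 CPM in tumors and 81.8 to 123 in cultures (-0.29 ± 0.23, 0.31), and the corrected difference was past the threshold (-0.93 ± 0.11, 2.55e-07). Corrected, 9 of the 10 genes were lower in tumors and IMPDH2 was not past the threshold (-0.12 ± 0.082, 0.276), where 40.5% of all genes changed. The median of the 10 was -1.05 as fitted and -0.90 corrected, beside 0.067 and -0.035 over all genes. The 8 proliferation genes (MKI67, TOP2A, PCNA, MCM2, MCM6, CCNB1, CDK1 and BUB1) were also all lower in Control tumors, with a median of -1.01, and their part in the difference was not tested.

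**Figure D4:**
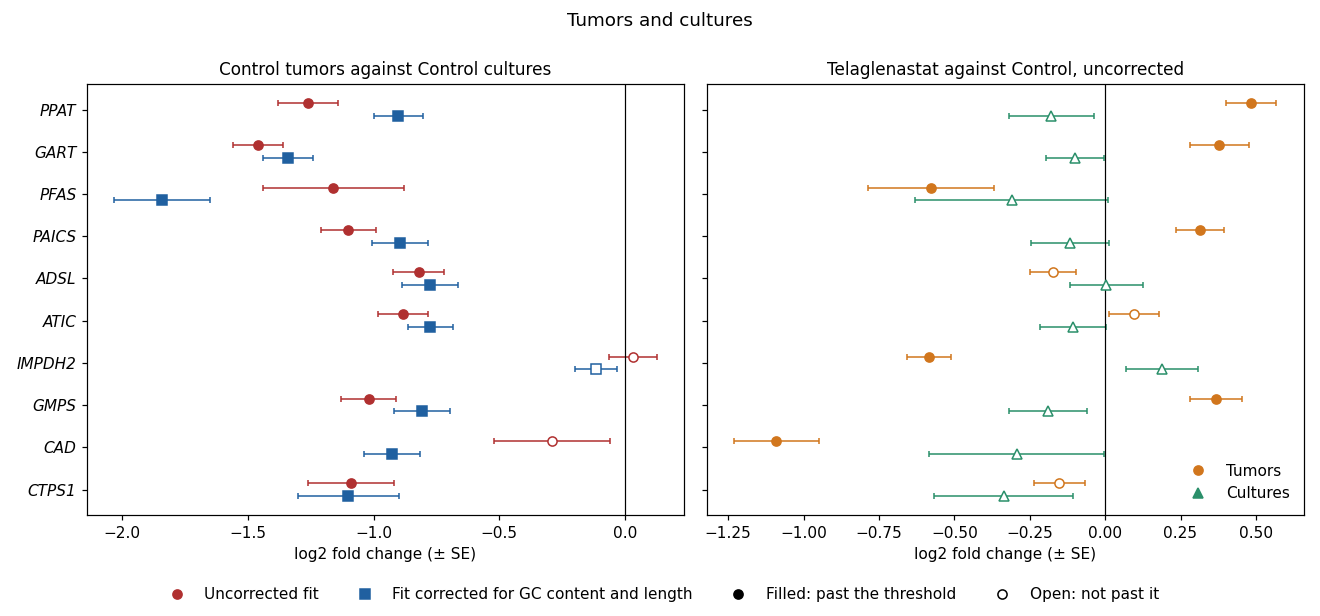
Left, log2 fold changes (± SE) of the 10 enzymes in Control tumors against Control cultures, as fitted (red circles) and corrected (blue squares). Right, uncorrected changes with Telaglenastat against Control in tumors (orange circles) and cultures (green triangles), with filled symbols past an adjusted p of 0.05; IMPDH2 stands at 0.030 on the left and at -0.58 in tumors and 0.19 in cultures on the right.

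The effects of each treatment were then compared between tumors and cultures, as the effect in tumors minus that in cultures. With Telaglenastat the difference was past the threshold for 5 of the 10 genes, 4 higher and 1 lower, where 34.1% of all genes differed. PPAT differed by 0.76 ± 0.16 (adjusted p = 0.000957), GMPS by 0.65 ± 0.15 (0.00204), GART by 0.57 ± 0.14 (0.00291) and PAICS by 0.52 ± 0.15 (0.00924), each higher in tumors. IMPDH2 differed by -0.68 ± 0.13 (0.000471), with a fall in tumors and no call in cultures. Corrected, 1 of the 5 remained past the threshold, IMPDH2 at -0.42 ± 0.11 (0.0295), where 3.82% of all genes differed. For Palbociclib and for the combination, 0 of the 10 genes differed between tumors and cultures, where 1.39% and 2.91% of all genes did, with 0 called by DESeq2. At an unadjusted p under 0.05 edgeR gave 2 and 3 of the 10, beside 14% and 20.8% of all genes, so these counts are near the background. GMPS with Palbociclib had -0.45 ± 0.15 (0.138) and PPAT with the combination 0.46 ± 0.16 (0.0982).

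The neighbouring pathways in tumors were read from 9 lists of genes. With Palbociclib few genes were called outside the proliferation list, and few were called over all genes. The 8 proliferation genes all fell with Palbociclib (median log2 fold change -0.78) and with the combination (-0.63), in which MKI67, a marker of cycling cells, fell by 1.05 ± 0.11 (adjusted p = 1e-05) and 1.22 ± 0.12 (2.45e-07). The 10 enzymes had medians of -0.011 and -0.049 in the same comparisons. With Telaglenastat, 2 proliferation genes rose and 1 fell as fitted, and 0 and 0 corrected. Palbociclib otherwise changed 1 of 6 other glutamine amidotransferases, GFPT1 of hexosamine synthesis (0.32 ± 0.084, 0.0255), and 1 of 7 formyl-folate enzymes, MTHFD1 (-0.35 ± 0.088, 0.0175). Over all genes 6.16% changed with Palbociclib. Palbociclib had calls for 0 of 4 PRPP-supply genes, 0 of 9 other synthesis and branch enzymes and 0 of 9 purine salvage genes. It also had calls for 0 of 6 pyrimidine salvage genes, 0 of 3 nucleoside transporters and 0 of 6 upstream regulators. In lists this small these counts are near the background and do not show that the genes were unchanged.

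With Telaglenastat as fitted, the PRPP-supply genes numbered 1 higher and 0 lower of 4, other synthesis and branch enzymes 4 and 4 of 9, purine salvage 3 and 5 of 9, pyrimidine salvage 0 and 3 of 6, and nucleoside transporters 0 and 3 of 3. Other glutamine amidotransferases numbered 2 and 2 of 6, formyl-folate enzymes 3 and 2 of 7 and upstream regulators 2 and 3 of 6. Over all genes 22.6% rose and 28.5% fell, 51.1% in all. Corrected, the lists numbered 0 and 0, 0 and 1, 0 and 2, 0 and 1, 0 and 0, 0 and 1, 0 and 1, and 2 and 1 in the same order, where 13.2% of all genes changed. GUK1, which phosphorylates GMP, fell by 2.22 ± 0.22 on the log2 scale (adjusted p = 1.31e-07) and by 0.86 corrected (0.00155). APRT, which salvages adenine, fell by 2.33 ± 0.22 (7.26e-08) and by 0.83 corrected (0.0011), and CDA, which deaminates cytidine, fell by 1.56 ± 0.17 (4.05e-07) and by 0.65 corrected (0.00562). MYC, a transcription factor known to induce many genes of nucleotide synthesis, fell by 0.44 ± 0.11 (0.00246) as fitted and rose by 0.40 corrected (0.0323).

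With the combination as fitted, the counts of higher and lower genes were 0 and 0 of 4 for PRPP supply, 3 and 4 of 9 for other synthesis and branch enzymes, 1 and 2 of 9 for purine salvage, 0 and 3 of 6 for pyrimidine salvage and 0 and 3 of 3 for nucleoside transporters. They were 2 and 1 of 6 for other glutamine amidotransferases, 0 and 3 of 7 for formyl-folate supply and 1 and 1 of 6 for upstream regulators, where 17.6% of all genes rose and 26.9% fell, 44.5% in all. Corrected, they were 0 and 1, 1 and 1, 1 and 1, 0 and 1, 0 and 0, 1 and 0, 0 and 2, and 2 and 1 in the same order, where 26.1% of all genes changed. The 2 formyl-folate enzymes were MTHFD1 at -0.69 (adjusted p = 1.72e-05) and the mitochondrial serine enzyme SHMT2 at -0.48 (0.0013). MTOR, the kinase of the growth pathway that signals to CAD, fell by 0.41 ± 0.085 (0.000611) and by 0.37 corrected (0.000833).

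In Control tumors against Control cultures as fitted, all 4 PRPP-supply genes were lower and 0 higher, led by PRPS2 (log2 fold change -0.97 ± 0.14, adjusted p = 2.88e-06). Of 7 formyl-folate enzymes 4 were lower and 0 higher, led by MTHFD2 of the mitochondria (-1.75 ± 0.12, 3.27e-12). The 8 proliferation genes were also all lower (median log2 fold change -1.01), and 1 of 3 nucleoside transporters was higher and 0 lower. The other lists had calls of both signs, with 2 higher and 4 lower of 9 other synthesis and branch enzymes, 2 and 4 of 9 purine salvage genes, 2 and 1 of 6 pyrimidine salvage genes, 1 and 3 of 6 other glutamine amidotransferases and 1 and 3 of 6 upstream regulators. Over all genes 23.1% were higher and 22.8% lower. Corrected, nucleoside transporters numbered 0 higher and 2 lower, purine salvage 0 and 4, and pyrimidine salvage 2 and 3. Other synthesis and branch enzymes numbered 2 and 4, other glutamine amidotransferases 0 and 3, and upstream regulators 1 and 4. PRPP supply, formyl-folate and proliferation genes numbered 0 and 4, 0 and 4, and 0 and 8, where 40.5% of all genes changed. As fitted over the 9 lists, CDA was the furthest on the higher side, at 2.63 ± 0.29 (5.64e-08). ASNS, which uses glutamine to make asparagine, was the furthest on the lower side, at -2.46 ± 0.30 (1.92e-07). The upstream regulator with the largest difference as fitted was ATF4, a factor of the amino acid response, at -1.03 ± 0.12 (1.03e-07).

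The mean pattern of the 10 enzymes over the 8 group means, each gene centred on its own mean, was 0.51 in Control cultures, 0.46 in Palbociclib, 0.34 in Telaglenastat and 0.35 in combination cultures on the log2 scale, and -0.39, -0.43, -0.38 and -0.46 in the tumors of the same order. Of genes tested in both places, the 5 with the highest Pearson's r to this pattern (n = 8 group means) were RNASEH1 (0.998), CCT5 (0.997), DNMT3B (0.995), NELFCD (0.995) and EIF3B (0.994). Among the 10 themselves, r with their mean was lowest for IMPDH2 (0.369) and CAD (0.442), the 2 genes not called between Control tumors and Control cultures as fitted, and PPAT had 0.924 and ADSL 0.984. The 8 points fall into tumors and cultures, so these values mostly follow that split.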

How the data were processed

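RNA-seq was measured in 28 libraries of HCT116 xenograft tumors (16) and derived cultures (12). Per the labels and the paper's methods, the authors purified poly(A) RNA, made libraries with the NEBNext Ultra kit with uracil in the second strand, sequenced single-end reads, processed them with CASAVA 1.8 (submitters' processing notes) and aligned them with STAR to hg38. The annotation release, the STAR version and the strand setting of the counting are not given in the sources used here. The deposited values are raw counts per gene, whole numbers without normalization. The study itself used DESeq2.

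Tumors and cultures were fitted separately as 4 group means each, and comparisons across them in 1 fit of all 28 libraries. The test was edgeR 4.0.16 (R 4.3.3) with glmQLFit and glmQLFTest, after filterByExpr with a minimum count of 10 and TMM scaling, with Benjamini-Hochberg adjustment over all genes tested and a threshold of 0.05. CPM values are on 1 TMM scale of all 28 libraries (overlap of groups was also read on the scale of each fit, a check added after the data were seen), and log2 CPM used a prior count of 2. Gene IDs were matched to GENCODE 29, which gave 57895 of 58278 genes, and unmatched genes held 0.0425% of counts. Exon length is the union of exons, and GC content is the length-weighted mean over its transcripts. The corrected fit took from each library a natural spline trend (4 degrees of freedom, rlm in MASS 7.3.60.0.1) of log2 level on GC content and log length. The 61 tested genes in tumors without GC content kept no trend. Alternatives were DESeq2 1.42.0, its size factors in edgeR, 2 other filters, the compared groups alone, 1 fit of all libraries, the replicate block, the correction with and without it, and leaving out each library. On simulated counts with the tumor design (14541 genes run), edgeR called 10%, 38%, 72% and 78% of genes changed 1.25-, 1.5-, 2- and 4-fold and 0.041% of unchanged genes. Only 50 genes were changed at each fold, drawn from genes of any level, and no GC trend was set. These rates therefore do not describe how readily changes of the 10 enzymes are called.

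The members, gene lists and tests were chosen with earlier results of these data known. All 10 members are named, and of other genes at most 3 per list and comparison, those with the largest change among the called. Markers serve as a check of cell types. No pair of replicates of a group were close enough to be 1 library deposited again.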

Additional observations from a re-analysis of the deposited data

Results flagged for a closer look

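For 5 of the 10 enzymes the effect of Telaglenastat differed between tumors and cultures, by the test of the difference itself (edgeR's quasi-likelihood test, all 28 libraries). The differences, tumors minus cultures on the log2 scale, were 0.756 for PPAT (adjusted p = 0.000957), 0.651 for GMPS (0.00204), 0.572 for GART (0.00291), 0.523 for PAICS (0.00924) and -0.68 for IMPDH2 (0.000471), where 34.1% of all genes differed. With trends on GC content and length removed they were 0.226 (0.378), 0.153 (0.641), 0.194 (0.483), 0.0704 (0.867) and -0.424 (0.0295), where 3.82% of all genes differed. The GC slopes of the Telaglenastat libraries were -0.29 to -0.21 in tumors and -0.155, 0.295 and -0.147 in cultures, beside 0.343 to 0.353 in Control tumors and -0.197 to 0.0473 in Control cultures.

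No treated tumor stood apart from its group in the level of any of the 10 enzymes by Dixon's test, over 30 sets of 4 or 5 tumors, in which chance alone flags about 1 in 20 sets. Groups of 3 libraries, which are the Control tumors and all groups of cultures, were not examined in this way.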

How the results depend on the processing

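The number of the 10 enzymes past the threshold kept within 1.5 times its value except as follows. With Palbociclib in tumors (1 as reported) it was 2 with at least 10 counts in every library and 0 with the replicate block, with the correction for GC content and length together with the block, with the compared groups alone and in 1 fit of all 28 libraries. With Telaglenastat in tumors (7) it was 3 corrected and 4 corrected with the block. With the combination in tumors (6) it was 3 corrected with the block. For the combination against Palbociclib in tumors (7) it was 3 corrected, with or without the block, and against Telaglenastat (1) it was 0 corrected, 0 corrected with the block and 0 in 1 fit of all libraries. Without a filter on low counts it was 1 in place of 0 for Palbociclib and for the combination in cultures and for the Palbociclib effect in tumors minus that in cultures. The Telaglenastat effect in tumors minus that in cultures (5) had 1 corrected and 0 corrected with the block, and that of the combination (0) had 1 with the compared groups alone. PFAS changed sign when corrected, to 0.422 with Telaglenastat, 0.298 with the combination and 0.0786 for the combination against Palbociclib (0.381, 0.252 and 0.122 with the block), and PAICS in the last comparison changed to -0.00222. These shifts follow the removal of trends on GC content and length, and their cause in the libraries was not tested. Leaving out 1 library gave 0 to 2 with Palbociclib, 6 to 8 with Telaglenastat, 3 to 6 with the combination, 6 to 8 for the combination against Palbociclib, 0 to 1 against Telaglenastat, 5 to 7 for the Telaglenastat effect in tumors minus cultures and 0 to 1 for that of the combination. The replicate numbers do not pair the samples, with correlations of same-numbered libraries from -0.115 to 0.0806 in tumors and from -0.365 to 0.133 in cultures, and 6 of 16 and 2 of 12 libraries closest to their own number. The interactions use every group, so a fit of the compared groups alone was not run for them. PFAS, with the fewest counts, had the widest standard errors of the 10 in the comparisons of tumors.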
